A study of Mus musculus with 15 samples.

Results

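The 32 genes described here mark macrophages: general surface and lysosomal markers, the 3 chains of complement C1q, Fc receptors and signalling adaptors, markers of tissue-resident macrophages, 2 chemokine receptors, 4 chemokine ligands, and lipid-handling and scavenger genes. They were taken by symbol from a table of raw counts for 43352 mouse genes, and all 32 were found in it. RNA-seq had been run on perivascular adipose tissue (PVAT), the fat that wraps the aorta, of mice 11 weeks old. The thoracic depot (tPVAT) and the abdominal depot (aPVAT) were sampled in control mice, labelled Prdm16flox, and in mice labelled Prdm16flox, AdipoQCre+ (called cKO below). There were 4 tPVAT control, 4 tPVAT cKO, 4 aPVAT control and 3 aPVAT cKO libraries, numbered 1 to 4 in the labels, and aPVAT cKO number 2 was not analysed here. All groups carry the floxed Prdm16 allele, and no group carries the Cre alone. Cre is driven by the Adipoq regulatory sequence, which is active in adipocytes, so macrophages of the cKO mice are not the cells in which the deletion is directed. Whether the samples of 1 group are separate animals is not stated in the labels, and the p-values below therefore cover only sample-to-sample spread, which may be technical.

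Macrophages are phagocytes that settle in every tissue, some seeded before birth and some replenished from blood monocytes. In fat they take up dying adipocytes and the lipid they release, and they secrete complement and chemokines. Their survival needs signalling through the receptor Csf1r, and the transcription factor PU.1, encoded by Spi1, sits at many of their genes on a core motif that reads GAGGAA.

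Prdm16 itself, the targeted gene, was read first. Levels are given as counts-per-million values (CPM), with library sizes scaled by the trimmed mean of M values (TMM). In tPVAT it stood at 46.4, 41.1, 46.3 and 55.6 CPM in controls 1 to 4 and at 22.4, 21.2, 22.2 and 23.8 CPM in cKO 1 to 4. In aPVAT it stood at 26.8, 21.4, 23.3 and 23.4 CPM in controls and at 15.1, 14.7 and 18.3 CPM in cKO 1, 3 and 4. The groups did not overlap in either depot, and the gene fell in cKO by the edgeR quasi-likelihood test (log2 fold change −1.08, SE 0.10, adjusted p = 2.22e-06 in tPVAT and log2 fold change −0.57, SE 0.11, adjusted p = 0.00992 in aPVAT). The labels do not say which exons the deletion removes, so reads from the rest of the gene and from cells other than adipocytes are included. Total counts per library ranged from 37761133 in aPVAT cKO 4 to 68735385. Structural RNA was most abundant in aPVAT cKO 4 (2.56% of counts) and next in aPVAT control 2 (1.06%), and the remaining 13 libraries held 0.0792 to 0.243%. Mitochondrial transcripts took 33.4 to 36.4% of counts in tPVAT controls, 26.5 to 31.6% in tPVAT cKO and 13.03 to 15.99% in aPVAT, and TMM scaling adjusts for that difference in composition. Adipoq and Fabp4, defining adipocyte genes, stood at group means of 836 to 1572 and 6231 to 9016 CPM.

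The genomic windows around the starts of 5 members are shown because the results turn on them: C1qb and C1qc, neighbours that moved together, Ccl8 and Gpnmb, the members that differed most between depots, and Cx3cr1, for which no depot difference passed the test. Each runs from 250 bases before to 50 bases after the start, 5′ to 3′ on the gene's strand, from RefSeq on GRCm38.p6, and capitals mark GAGGAA or its other-strand form TTCCTC. The windows lie at chr4:136886151-136886450 (minus strand, C1qb), chr4:136892865-136893164 (minus, C1qc), chr11:82114935-82115234 (plus, Ccl8), chr6:49036268-49036567 (plus, Gpnmb) and chr9:120068247-120068546 (minus, Cx3cr1).
C1qb: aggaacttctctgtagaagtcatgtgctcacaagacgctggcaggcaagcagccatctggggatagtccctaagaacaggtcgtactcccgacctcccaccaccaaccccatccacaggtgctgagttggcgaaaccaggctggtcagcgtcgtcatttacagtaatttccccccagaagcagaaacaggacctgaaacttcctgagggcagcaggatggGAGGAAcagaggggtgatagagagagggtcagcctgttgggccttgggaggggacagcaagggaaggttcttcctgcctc
C1qc: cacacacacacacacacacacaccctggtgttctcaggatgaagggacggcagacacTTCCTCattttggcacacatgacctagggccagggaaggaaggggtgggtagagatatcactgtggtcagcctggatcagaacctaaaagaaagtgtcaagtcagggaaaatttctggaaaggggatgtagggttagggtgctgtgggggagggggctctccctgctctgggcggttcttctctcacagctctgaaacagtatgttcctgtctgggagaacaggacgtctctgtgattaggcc
Ccl8: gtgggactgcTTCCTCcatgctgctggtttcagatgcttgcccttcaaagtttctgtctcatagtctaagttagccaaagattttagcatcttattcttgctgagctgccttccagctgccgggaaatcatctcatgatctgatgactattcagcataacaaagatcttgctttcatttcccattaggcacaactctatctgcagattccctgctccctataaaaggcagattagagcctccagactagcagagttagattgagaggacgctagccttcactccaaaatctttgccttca
Gpnmb: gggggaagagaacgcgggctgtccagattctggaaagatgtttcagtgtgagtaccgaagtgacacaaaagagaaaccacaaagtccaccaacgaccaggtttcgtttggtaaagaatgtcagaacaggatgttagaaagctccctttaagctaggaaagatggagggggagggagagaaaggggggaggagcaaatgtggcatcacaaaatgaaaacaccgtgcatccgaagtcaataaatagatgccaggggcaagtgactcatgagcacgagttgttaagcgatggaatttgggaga
Cx3cr1: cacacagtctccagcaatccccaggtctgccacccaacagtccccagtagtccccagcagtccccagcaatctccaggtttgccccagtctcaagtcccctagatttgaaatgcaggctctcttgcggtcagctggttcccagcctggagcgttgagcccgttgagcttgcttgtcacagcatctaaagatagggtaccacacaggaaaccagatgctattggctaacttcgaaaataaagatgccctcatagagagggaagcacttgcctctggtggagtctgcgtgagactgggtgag
Both strands of the windows of 24 members were searched for GAGGAA. It was found in 11 of them (C1qb, C1qc, Ccl8, Cd68, Fcgr1, Fcgr3, Itgam, Mrc1, Spp1, Trem2 and Vsig4), counting a gene with the motif in any of its windows (Fcgr3, Folr2 and Spp1 have 2 windows each), against 31.3% of the 27025 genes in the same table counted the same way. The windows of Gpnmb and Cx3cr1 did not hold these letters. No window was used for Cd14, Ccl2, Adgre1, Msr1, Lyve1, C1qa, Tyrobp and Csf1r.

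All 32 members were detected in all 15 libraries, the lowest being 17 counts of Vsig4 in 1 tPVAT control library, and all 32 passed the filter on low counts. Levels of different genes were compared per length, as counts scaled to library size and to kilobases of exon (RPKM). Lyz2, the lysozyme of myeloid cells, was the highest in every group, at 128 ± 14.4 RPKM in tPVAT controls and 264 ± 46.6 in aPVAT controls (SD, 4 libraries each). The C1q chains followed in the order C1qa, C1qb and C1qc, with C1qa at 55.4 ± 2.72 and 111 ± 24.5 RPKM in the same groups. Ccl6, Tyrobp and Fcer1g came next. At the other end Trem2, Msr1, Itgax, Vsig4, Spp1, Cx3cr1, Fcgr1 and Gpnmb lay below 1 RPKM in tPVAT controls. Lyz2 can share reads with its near-identical neighbour Lyz1, and exons of Itgam, Spp1, Csf1r, Folr2, Fcgr2b and Cx3cr1 overlap those of other annotated genes, so their counts are uncertain to that extent.

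**Figure D1:**
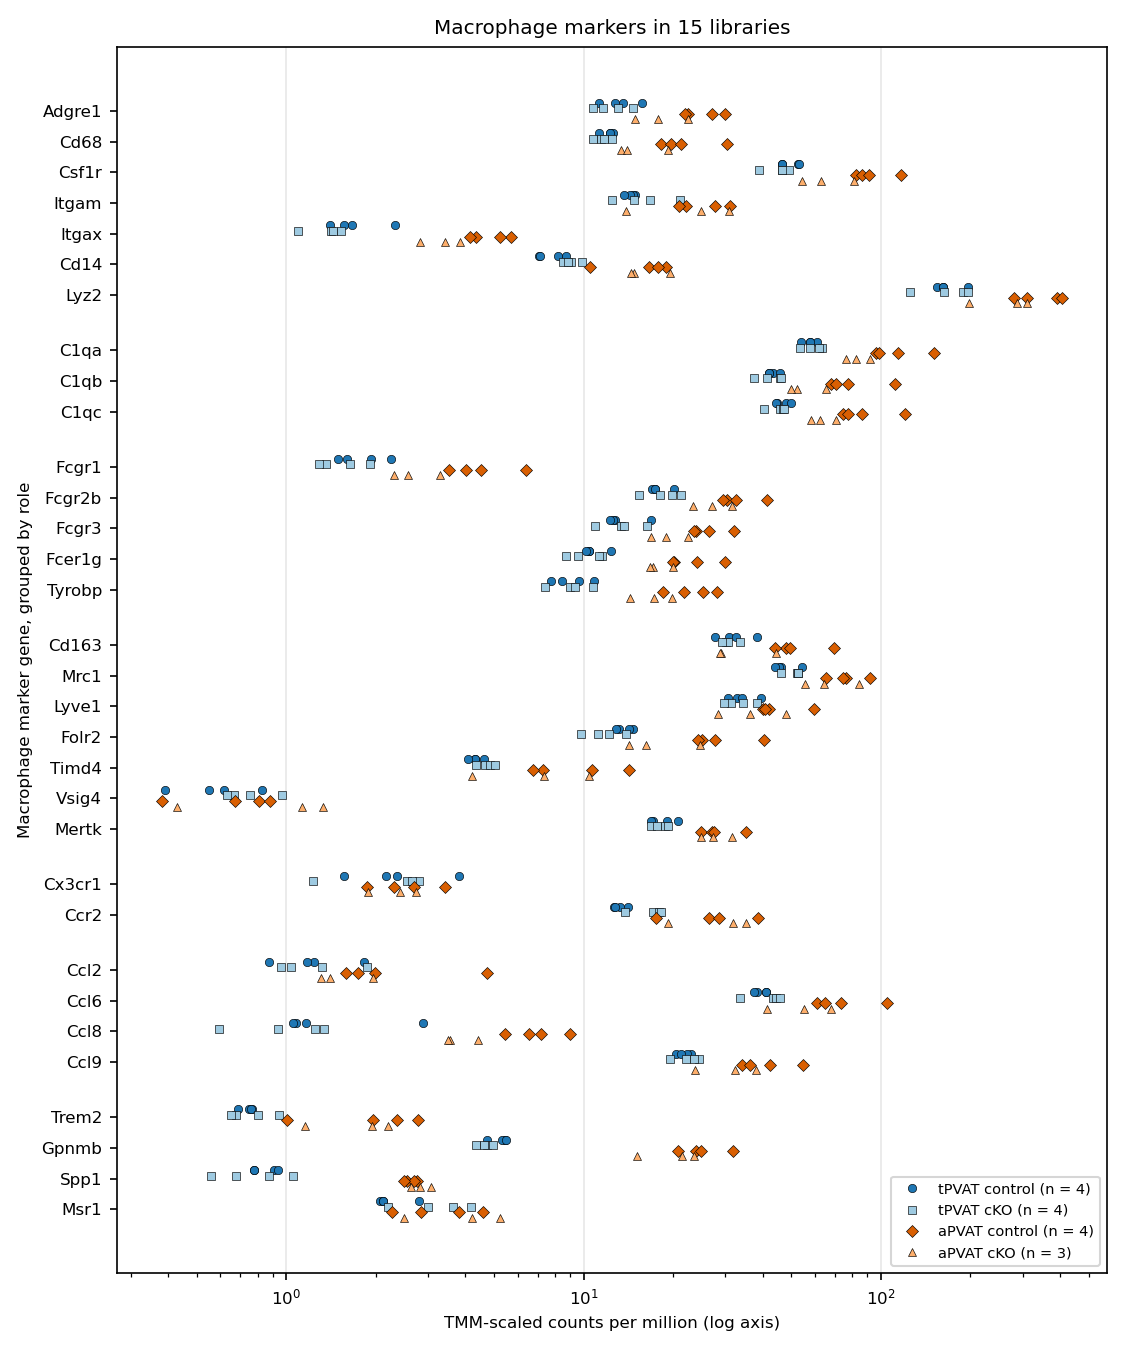
Level of each of the 32 macrophage markers in the 15 libraries, in TMM-scaled CPM on a log axis, with genes grouped by role. Each symbol is 1 library (circles tPVAT control, squares tPVAT cKO, diamonds aPVAT control, triangles aPVAT cKO). In controls the aPVAT libraries lie above all tPVAT libraries for 28 genes, and the tPVAT control and cKO symbols overlap for all 32.

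The first comparison asks whether macrophage transcripts differ between the depots in control mice. They were higher in aPVAT: 29 of the 32 members rose at an adjusted p under 0.05 and 0 fell, where 29.3% of the 19645 genes tested rose and 27.3% fell. The median log2 difference of the members was 0.95, about a doubling, beside 0.04 for all genes tested. Summed over the 32 genes the level was 677 to 758 CPM in the 4 tPVAT control libraries and 1196 to 1658 CPM in the 4 aPVAT control libraries. For 28 members the 2 groups of libraries did not overlap, all with aPVAT higher, against 25.4% of genes tested that were apart in this direction and 24.1% in the other. In bulk tissue more macrophages and more RNA per macrophage cannot be told apart. 

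All 7 general markers rose. Adgre1 encodes F4/80, the standard surface marker of mouse macrophages. It stood at 13.6, 15.7, 11.3 and 12.7 CPM in tPVAT controls and 29.9, 22.5, 22.0 and 27.1 CPM in aPVAT controls. All aPVAT values lay above all tPVAT values (log2 fold change 0.93, SE 0.14, adjusted p = 4.23e-05). Csf1r, the receptor for the growth factor Csf1, stood at 52.8, 53.1, 46.3 and 46.5 CPM in tPVAT and 117, 82.6, 86.5 and 91.3 CPM in aPVAT. The groups were again apart, with aPVAT control 1 highest (log2 fold change 0.92, SE 0.13, adjusted p = 1.41e-05). Cd68, a lysosomal membrane protein, rose by 0.89 on the log2 scale, Lyz2 by 1.04, and Cd14, a co-receptor for bacterial lipopolysaccharide, by 1.04. Itgam, the CD11b integrin chain that monocytes and neutrophils also carry, rose least at 0.82 (adjusted p = 0.00267). Itgax, the CD11c chain shared with dendritic cells, rose most of the 7: it stood at 1.40, 1.67, 1.56 and 2.32 CPM in tPVAT and 5.71, 4.36, 4.15 and 5.22 CPM in aPVAT (log2 fold change 1.49, SE 0.17, adjusted p = 1.69e-06).

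The C1q chains, which form the recognition molecule of the classical complement pathway, are encoded by 3 genes in a row on chromosome 4 and moved together. C1qa stood at 57.8, 60.8, 57.9 and 53.9 CPM in tPVAT controls and 152, 96.4, 98.4 and 114 CPM in aPVAT controls. C1qb stood at 43.5, 45.6, 42.2 and 42.0 CPM and 112, 67.8, 70.9 and 77.7 CPM, and C1qc at 47.8, 49.8, 44.9 and 44.5 CPM and 121, 74.7, 77.6 and 86.3 CPM. In each case aPVAT control 1 was well above the other 3, and those 3 were still above every tPVAT library. The differences were 0.998, 0.92 and 0.94 on the log2 scale, each with an SE of 0.12 to 0.14 (adjusted p = 3.18e-06, 2.87e-05 and 8.47e-06). The proportions of the chains barely varied: C1qa made up 45.7 to 49.7% of the summed C1q RPKM over the 15 libraries, C1qb 30.1 to 34.0% and C1qc 19.1 to 20.6%.

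Fc receptors, which bind the constant part of antibodies, and the signalling adaptors Fcer1g and Tyrobp rose in 5 of 5 cases. Fcgr1, the high-affinity IgG receptor, rose by 1.34 (adjusted p = 3.49e-05), from a range of 1.49 to 2.25 CPM to one of 3.52 to 6.40 CPM. The inhibitory receptor Fcgr2b rose by 0.90 and the activating receptor Fcgr3 by 0.96. Tyrobp, the adaptor DAP12 used by Trem2 among others, stood at 8.47, 10.8, 9.67 and 7.75 CPM in tPVAT and 28.1, 18.5, 21.8 and 25.1 CPM in aPVAT. The 2 groups were apart (log2 fold change 1.35, SE 0.15, adjusted p = 1.38e-06). Fcer1g, the gamma chain shared by several Fc receptors and also present in mast cells, rose by 1.11, and 5 of 5 mast cell genes rose as well (median 0.95).

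Markers of resident macrophages were less uniform, and 6 of 7 rose. Timd4, a receptor for phosphatidylserine on dying cells, rose by 1.17 (adjusted p = 7.16e-04), and Folr2, a folate receptor, by 1.097 (adjusted p = 6.99e-05). Cd163, the haemoglobin scavenger receptor, rose by 0.70, Mrc1, the mannose receptor, by 0.70, and Mertk, a receptor for apoptotic cells, by 0.63. Lyve1, a hyaluronan receptor of perivascular macrophages, stood at 39.6, 32.9, 30.6 and 34.1 CPM in tPVAT and 59.4, 40.1, 41.9 and 40.9 CPM in aPVAT. The aPVAT libraries other than control 1 lay only just above the highest tPVAT library (log2 fold change 0.41, SE 0.15, adjusted p = 0.0323), and without aPVAT control 1 the difference was 0.26 (adjusted p = 0.127). Leaving out tPVAT control 2, 3 or 4 also ended this call (adjusted p = 0.0689, 0.0886 and 0.0614). Lymphatic endothelium also makes Lyve1, and 5 of 6 other lymphatic markers rose in aPVAT (median 1.18), with summed levels of 70.6 to 90.9 CPM in tPVAT and 154 to 216 CPM in aPVAT; its part in the Lyve1 difference was not tested. Vsig4, a complement receptor, stood at 0.831, 0.618, 0.551 and 0.390 CPM in tPVAT and 0.811, 0.381, 0.673 and 0.882 CPM in aPVAT. The groups overlapped fully, and its difference of 0.20 (95% interval −0.51 to 0.91) did not pass the test (adjusted p = 0.631).

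The chemokine receptors parted. Ccr2, which draws monocytes out of the blood, stood at 13.3, 14.1, 12.7 and 12.7 CPM in tPVAT controls and 17.6, 38.6, 26.4 and 28.5 CPM in aPVAT controls. The tPVAT libraries were close together and all lay below the scattered aPVAT libraries (log2 fold change 1.07, SE 0.20, adjusted p = 3.17e-04). Cx3cr1, the fractalkine receptor, stood at 2.16, 3.80, 1.56 and 2.36 CPM and 2.31, 3.41, 1.87 and 2.70 CPM. The groups overlapped throughout, and the difference was 0.05 with a 95% interval of −0.54 to 0.64 (adjusted p = 0.895).

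All 4 chemokine ligands rose. Ccl8, a chemokine that resident macrophages secrete, stood at 1.17, 2.89, 1.08 and 1.05 CPM in tPVAT controls and 8.99, 7.17, 5.44 and 6.54 CPM in aPVAT controls. The groups were apart although tPVAT control 2 was well above the other 3, and the fold was 4.50 (log2 fold change 2.17, SE 0.30, adjusted p = 1.44e-05). Ccl6 and Ccl9, chemokines of myeloid cells, rose by 0.95 and 0.95. Ccl2, the main ligand of Ccr2, stood at 1.82, 1.24, 1.17 and 0.871 CPM in tPVAT and 4.72, 1.995, 1.59 and 1.74 CPM in aPVAT. aPVAT control 1 was far above the rest, control 2 just above the highest tPVAT library, and the other 2 lay within the tPVAT range. Its difference was 0.97 (adjusted p = 0.0227), and without aPVAT control 1 it was 0.47 (adjusted p = 0.13). Leaving out tPVAT control 3 or 4 also ended the call (adjusted p = 0.0531 and 0.069).

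Of the 4 genes of lipid-associated macrophages and lipid scavenging 3 rose, and Gpnmb had the largest difference of all 32 members. Gpnmb, a transmembrane glycoprotein of lipid-laden macrophages, stood at 5.42, 4.74, 5.31 and 5.48 CPM in tPVAT controls and 31.7, 23.9, 24.8 and 20.8 CPM in aPVAT controls. The highest tPVAT library was well below the lowest aPVAT library, and the fold was 4.83 (log2 fold change 2.27, SE 0.14, adjusted p = 2.02e-09). Spp1, osteopontin, stood at 0.910, 0.937, 0.781 and 0.780 CPM in tPVAT and 2.75, 2.54, 2.68 and 2.49 CPM in aPVAT. The aPVAT values were nearly equal and about 3 times the tPVAT values (log2 fold change 1.61, SE 0.16, adjusted p = 4.88e-07). Trem2, a lipid-sensing receptor, rose by 1.45 (adjusted p = 2.94e-04) from levels under 1 CPM. Msr1, a scavenger receptor for modified lipoproteins, differed by 0.57 with overlapping groups and did not pass the test (adjusted p = 0.0679). Of 10 other genes linked to this state, 6 rose and 2 fell in aPVAT. Cd63, a lysosomal tetraspanin, was higher by 1.24 and Ctsk, the protease cathepsin K, by 1.13, while the lysosomal lipase Lipa was lower (log2 fold change −1.28), and adipocytes also express such lysosomal genes.

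**Figure D2:**
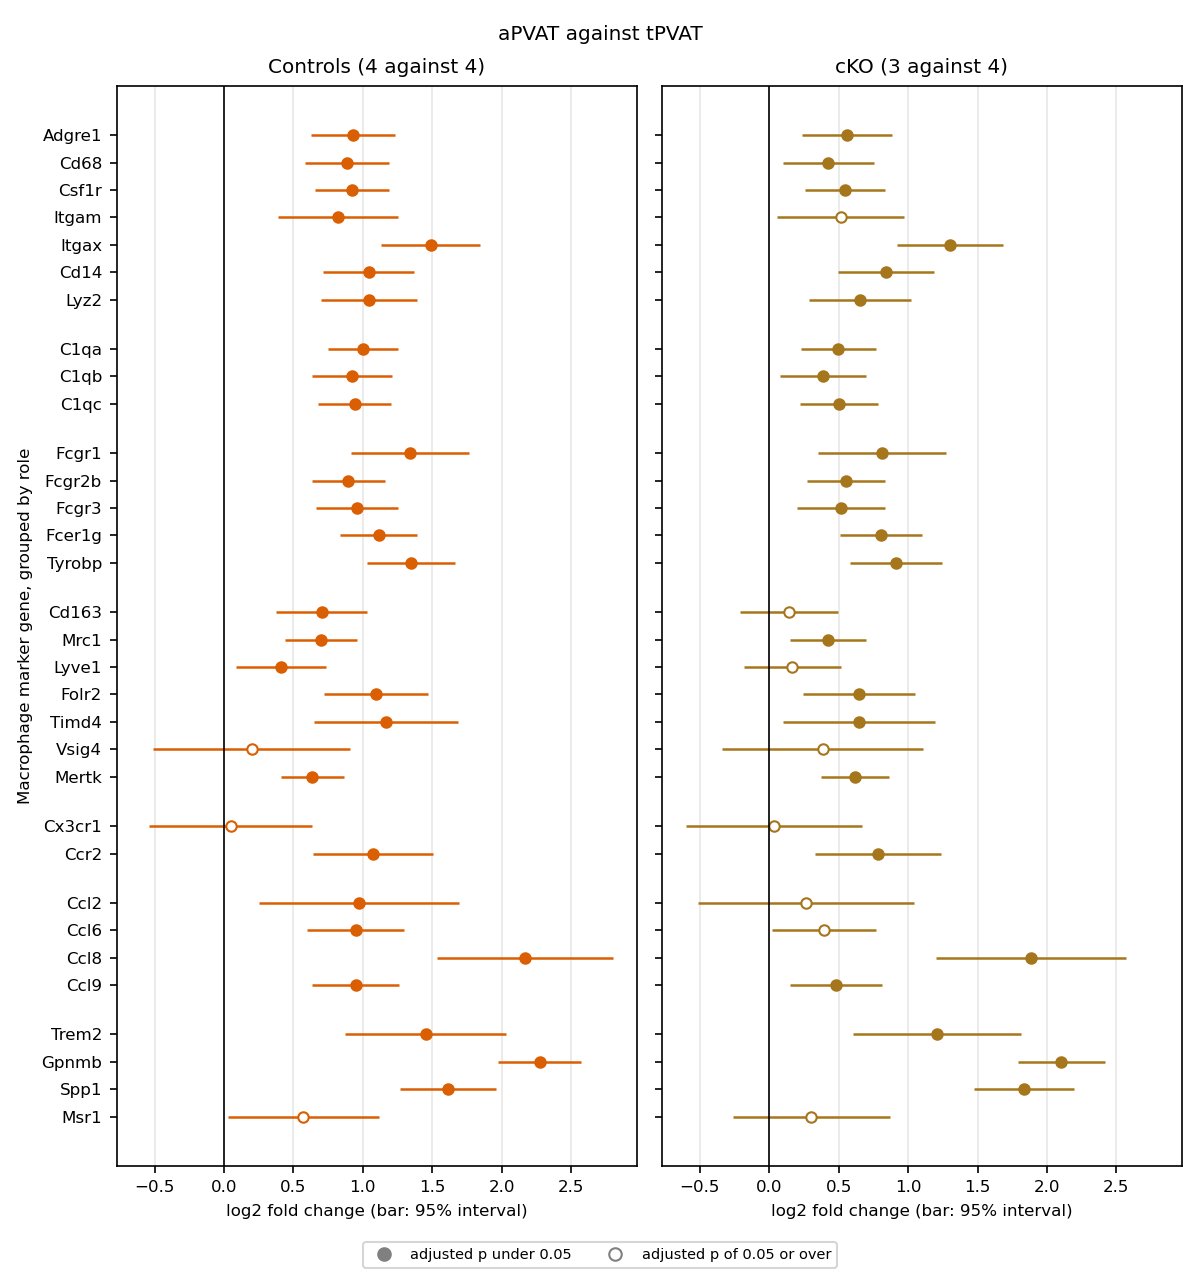
Difference between aPVAT and tPVAT for each macrophage marker, as log2 fold change with its 95% interval, in controls on the left and in cKO on the right. Filled points passed an adjusted p of 0.05: 29 of 32 in controls and 24 of 32 in cKO, with Gpnmb, Ccl8 and Spp1 farthest to the right in both panels.

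Macrophage genes outside the 32 were mostly higher in aPVAT as well. Of 15 other genes of resident macrophages, 14 rose in aPVAT controls and 0 fell (median 1.52). Cd209f, a lectin, rose by 1.78 (adjusted p = 2.23e-09), Siglec1, a sialic acid receptor, by 1.77, and Cd209g, another lectin, by 1.79. Of 11 genes that specify or feed macrophages, 9 rose, among them Gas6, the ligand of Mertk (0.93), Irf8 (1.72) and Apoe (1.09). Genes of several other leukocytes rose too. All 7 pan-leukocyte genes rose (median 1.13, summed 109 to 126 CPM in tPVAT and 207 to 319 CPM in aPVAT), as did 7 of 7 MHC class II genes (median 1.43) and 8 of 8 T and NK cell genes (median 1.79). Of 6 neutrophil genes 2 rose and 1 fell, with overlapping summed levels (2.18 to 7.16 CPM in tPVAT and 4.18 to 6.15 CPM in aPVAT), and of 6 B cell genes 3 rose but none had groups apart. Inflammatory cytokine and chemokine genes rose in 9 of 12 tested cases (median 1.60), and monocyte genes in 6 of 8 (median 0.92). Of 8 fibroblast and progenitor genes 6 rose (median 0.92). Of 8 adipocyte genes 2 rose and 2 fell (median −0.06). B cell genes summed to 59.3 CPM in aPVAT control 4 and 8.41 to 17.96 CPM in the other 3 aPVAT controls, and without that library 29 members were still called. The part of these other cells in the macrophage results was not tested. Scaling by total counts alone moved the median of all genes to 0.78, and with it 32 members were called higher with a median of 1.70, where 74.4% of all genes tested were called higher.

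To compare macrophage genes with each other free of library scaling, each of the 29 members outside C1q was expressed as a percent of the summed C1q RPKM of the same library. For 24 of the 29 the aPVAT and tPVAT control libraries overlapped on this ratio. The ratio was higher in aPVAT without overlap for 4, Tyrobp, Ccl8, Gpnmb and Spp1, where 2.17% of all genes tested were, and lower for 1, Lyve1, where 66.2% were. For Csf1r the ratio was 7.61, 7.28, 6.82 and 7.10% in tPVAT and 6.49, 7.38, 7.49 and 7.01% in aPVAT. For Gpnmb it was 0.692, 0.577, 0.692 and 0.741% in tPVAT and 1.57, 1.89, 1.91 and 1.41% in aPVAT, so the Gpnmb ratio separated the depots and the Csf1r ratio did not. For Lyve1 it was 11.3, 8.94, 8.90 and 10.3% and 6.54, 7.10, 7.18 and 6.21%, lower in all 4 aPVAT libraries. In cKO the same comparison gave 6 higher without overlap (those 4 with Itgax and Fcer1g, against 7.40% of genes tested), 1 lower (Lyve1, against 47.1%) and 22 overlapping. The C1q chains were themselves higher in aPVAT, so a gene with equal levels in both depots has a lower ratio there. The shares over all genes follow that shift and are not a chance rate for the members. These are descriptions with no test, and Gpnmb and Spp1 can also be made by cells other than macrophages.

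**Figure D3:**
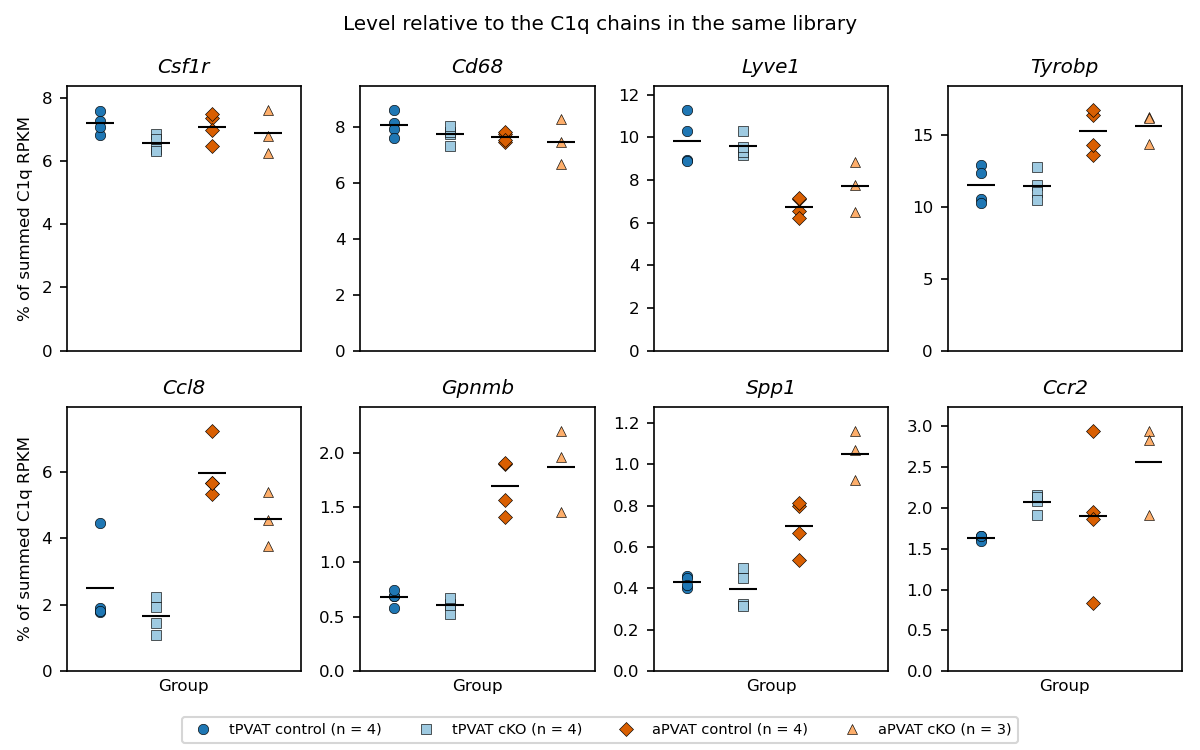
Level of 8 macrophage markers as percent of the summed RPKM of C1qa, C1qb and C1qc in the same library, on linear axes from 0. Each symbol is 1 library and each bar the group mean. Csf1r and Cd68 overlap between depots, Lyve1 is lower in aPVAT, and Tyrobp, Ccl8, Gpnmb and Spp1 are higher in aPVAT without overlap in controls.

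The second comparison asks whether the depots differed in cKO mice. Of the 32 members 24 rose in aPVAT and 0 fell, where 27.2% of genes tested rose and 25.4% fell. The median difference was 0.55 beside 0.04 for all genes. For 22 members the groups did not overlap, all with aPVAT higher, against 27.4% of genes in this direction and 27.5% in the other. The 24 were all among the 29 called in controls. Gpnmb stood at 4.74, 4.34, 4.97 and 4.62 CPM in tPVAT cKO and 15.1, 23.6 and 21.4 CPM in aPVAT cKO, and Spp1 at 0.876, 1.05, 0.676 and 0.556 CPM and 3.06, 2.81 and 2.63 CPM. Both genes separated the depots widely (log2 fold change 2.10 and 1.84, adjusted p = 1.25e-08 and 2.79e-07). Ccl8 differed by 1.88 (adjusted p = 1.62e-04), Itgax by 1.30, Trem2 by 1.21 and Tyrobp by 0.91.

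The C1q chains were also higher in aPVAT cKO. C1qa stood at 57.9, 63.5, 62.0 and 53.3 CPM in tPVAT cKO and 82.5, 91.7 and 76.4 CPM in aPVAT cKO, and its log2 difference was 0.50 (adjusted p = 0.00378). All 3 aPVAT values lay above the 4 tPVAT values. C1qb differed by 0.39 (adjusted p = 0.0342) and C1qc by 0.50 (adjusted p = 0.00449). The 8 members that did not pass were these: Itgam at 0.51 (adjusted p = 0.0573), Ccl6 at 0.39 (adjusted p = 0.0716), Msr1 at 0.30, Vsig4 at 0.38, Ccl2 at 0.26, Lyve1 at 0.16, Cd163 at 0.14 and Cx3cr1 at 0.03. The count rested on few aPVAT libraries: 16 members were called without aPVAT cKO 3 and 26 without aPVAT cKO 4. Timd4, called at 0.65 (adjusted p = 0.0451), had overlapping groups and missed the threshold with the sample number as a replicate block (adjusted p = 0.0948), as did Cd68 (adjusted p = 0.0588). Timd4 also lost its call without any 1 of the 4 tPVAT controls, the 4 tPVAT cKO libraries, aPVAT cKO 1 or aPVAT cKO 3.

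The third comparison asks whether loss of Prdm16 from adipocytes changed macrophage transcripts in tPVAT. Of the 32 members 0 were called by edgeR, 0 reached an unadjusted p under 0.05, and DESeq2 also called 0, where 12.0% of genes tested were called. The median was −0.02 beside −0.01 for all genes, and the summed level was 677 to 758 CPM over the control libraries against 599.9 to 769 CPM over the cKO libraries. The groups overlapped for all 32 members, where 11.0% of genes tested were apart with cKO higher and 12.2% with cKO lower. At an unadjusted p under 0.05 stood 26.0% of genes. The 95% intervals bound the differences: they lay within 2-fold for 29 members and within 1.5-fold for 20. Adgre1 stood at 11.6, 14.6, 13.1 and 10.7 CPM in cKO, overlapping the control values given above (log2 fold change −0.09, 95% interval −0.40 to 0.21). The C1q chains differed by 0.04, −0.02 and −0.05, with intervals of −0.21 to 0.29, −0.31 to 0.26 and −0.31 to 0.21.

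The members whose intervals in tPVAT reached beyond 2-fold were Ccl8, Vsig4 and Msr1. Ccl8 stood at 1.34, 1.25, 0.935 and 0.594 CPM in cKO, and its estimate of −0.59 (95% interval −1.28 to 0.09, adjusted p = 0.265) was set against controls in which number 2 alone reached 2.89 CPM. Msr1 stood at 2.79, 2.06, 2.11 and 2.11 CPM in controls and 3.63, 3.004, 4.18 and 2.21 CPM in cKO. Most cKO libraries were higher, but the groups overlapped (log2 fold change 0.52, SE 0.26, adjusted p = 0.220). Ccr2 stood at 17.1, 17.9, 18.3 and 13.8 CPM in cKO, with 3 of 4 above every control (log2 fold change 0.35, SE 0.20, adjusted p = 0.307). In a fit of the 8 tPVAT libraries alone it was the 1 member called of 32 (log2 fold change 0.36, adjusted p = 0.0158), where that fit called 20.7% of genes. Taken by same-numbered pairs, Msr1 and Ccr2 were higher in cKO in 4 of 4, but with the number as a replicate block neither passed (log2 fold change 0.51 and 0.34, adjusted p = 0.275 and 0.281). Of the 32 members 5 were higher in cKO in all 4 pairs and 3 lower, against 19.4% and 22.9% of genes tested. On the ratio to C1q, Ccr2 and Timd4 were higher and Folr2 lower in cKO without overlap, against 7.65% and 6.73% of genes tested in these directions. Of 8 monocyte genes Ly6c2, also present on endothelium, fell by 0.46 on the log2 scale (adjusted p = 0.0118) and Chil3 rose by 1.32 (adjusted p = 0.0152).

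The fourth comparison asks the same in aPVAT, with 3 cKO libraries against 4 controls. Estimates for most macrophage markers lay below 0, but edgeR called 0 of 32 after adjustment, where 1.53% of genes tested were called. At an unadjusted p under 0.05 there were 19 members, against 12.4% of genes, and DESeq2 called 8, all lower, where it called 1.76% of genes lower. The median was −0.41 beside −0.01 for all genes, with 27 estimates below 0. The summed level was 1196 to 1658 CPM over the control libraries against 857 to 1224 CPM over the cKO libraries, which overlap. For 8 members the groups did not overlap, all with cKO lower, against 5.80% of genes in this direction and 3.76% in the other: Csf1r, Itgax, C1qa, C1qb, C1qc, Fcgr1, Fcgr3 and Ccl8.

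C1qb came nearest to the threshold. C1qa stood at 82.5, 91.7 and 76.4 CPM in cKO against the control values of 152, 96.4, 98.4 and 114 CPM, C1qb at 52.3, 65.2 and 49.7 against 112, 67.8, 70.9 and 77.7 CPM, and C1qc at 62.3, 70.8 and 58.4 against 121, 74.7, 77.6 and 86.3 CPM. For each gene the highest cKO library, number 3, lay just below the lowest control. The estimates were −0.46, −0.56 and −0.49 on the log2 scale (adjusted p = 0.0991, 0.0800 and 0.0905). By DESeq2 the adjusted p was 0.0216, 0.0116 and 0.0165. Without aPVAT control 2 the 3 chains were called by edgeR (adjusted p = 0.04, 0.0356 and 0.0356), and with weights per library C1qb alone was (adjusted p = 0.0495).

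Some receptors showed estimates of like size or larger, and others differed little. Group means in aPVAT controls and cKO were 28.7 and 27.9 CPM for Mertk, 27.8 and 28.8 CPM for Ccr2, and 2.57 and 2.34 CPM for Cx3cr1. Csf1r stood at 117, 82.6, 86.5 and 91.3 CPM in controls and 62.8, 81.3 and 54.1 CPM in cKO. All cKO values lay below the controls, by a narrow margin for number 3 (log2 fold change −0.51, SE 0.14, adjusted p = 0.0858). Fcgr1 stood at 6.40, 4.51, 4.02 and 3.52 CPM in controls and 2.30, 3.30 and 2.57 CPM in cKO (log2 fold change −0.76, SE 0.21, adjusted p = 0.101). The ligand Ccl8 stood at 4.41, 3.55 and 3.49 CPM in cKO against 8.99, 7.17, 5.44 and 6.54 CPM in controls. It had the lowest estimate of the 32 (log2 fold change −0.88, SE 0.30, adjusted p = 0.211). Its groups were apart, with a wide interval of −1.52 to −0.24. Folr2 stood at 40.4, 25.1, 27.6 and 24.4 CPM in controls and 16.2, 24.6 and 14.2 CPM in cKO. Here cKO 3 reached the lower controls while cKO 1 and 4 were far below (log2 fold change −0.67, SE 0.19, adjusted p = 0.106). Cd163 behaved alike (log2 fold change −0.63, SE 0.17, adjusted p = 0.0846). Without aPVAT cKO 3, Csf1r, Cd163, Cd68 and Folr2 were called lower.

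The 4 members of lipid-associated macrophages and lipid scavenging had estimates of −0.34 to 0.25, with a median of −0.04. The 10 other genes linked to this state spread more widely, with estimates of −0.94 to 0.67 and a median of −0.06. Of these 10, edgeR called 1 higher and 0 lower, where 0.743% of genes tested were called higher. The gene called was Fabp5, with group means of 63.7 CPM in controls and 101 CPM in cKO (log2 fold change 0.67, adjusted p = 0.00819). Its means in tPVAT were 69.2 CPM in controls and 173 CPM in cKO. Which cells the Fabp5 difference comes from was not tested. Spp1 stood at 2.75, 2.54, 2.68 and 2.49 CPM in aPVAT controls and 3.06, 2.81 and 2.63 CPM in cKO. The values overlapped (log2 fold change 0.12, 95% interval −0.22 to 0.45). Relative to summed C1q, Spp1 was 0.537, 0.797, 0.813 and 0.669% in controls and 1.16, 0.923 and 1.07% in cKO, and Fcer1g was 11.0, 11.9, 11.4 and 12.2% and 12.2, 12.4 and 12.8%. These were the 2 of 29 members whose ratio was higher in cKO without overlap, Fcer1g by a narrow margin, where 34.8% of all genes tested were. The ratio was lower without overlap for 0, where 0.387% of genes were. The C1q estimates were themselves below 0, so a gene with equal levels in both groups has a higher ratio in cKO. Besides Spp1, the members with estimates above 0 were Cd14, Ccr2, Msr1 and Vsig4 (0.02 to 0.51).

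**Figure D4:**
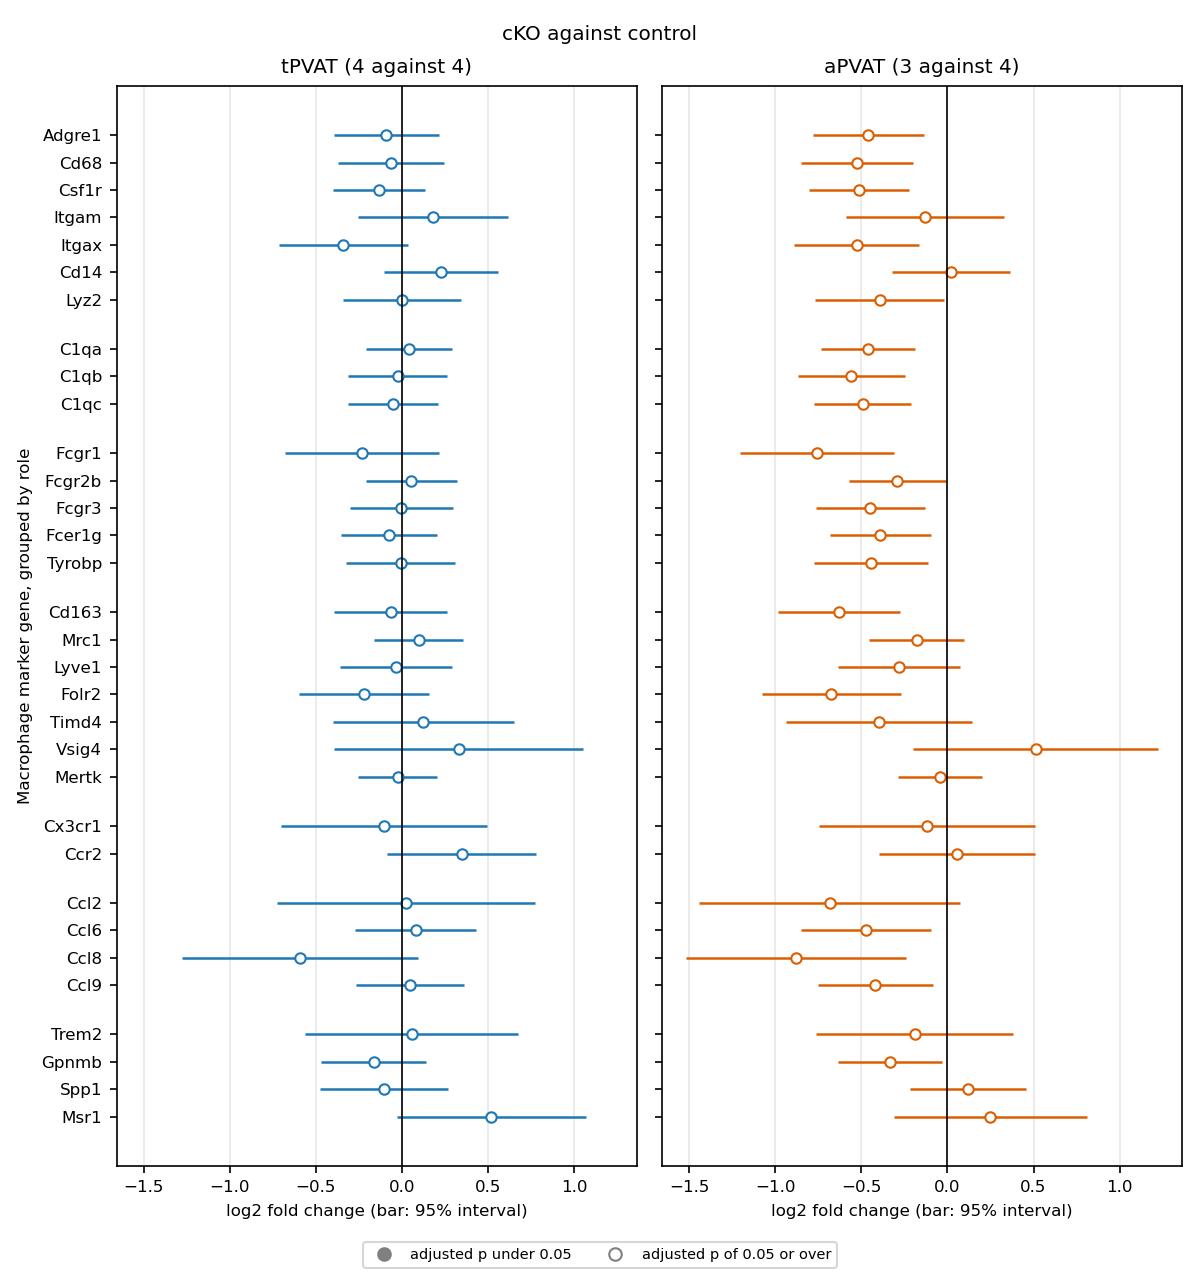
Difference between cKO and control for each macrophage marker, as log2 fold change with its 95% interval, in tPVAT on the left and aPVAT on the right. All points are open, since 0 of 32 passed an adjusted p of 0.05 in either depot. The tPVAT points scatter around 0 with a median of −0.02, while 27 of 32 aPVAT points lie below 0 with a median of −0.41.

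The size of the aPVAT estimates varied with the libraries used. aPVAT control 1 was the highest of the controls for 23 of the 32 members, aPVAT cKO 4 the lowest of its group for 27, and aPVAT cKO 3 the highest for 24. With 1 library left out at a time the median estimate ranged from −0.53, without aPVAT cKO 3, to −0.27, without aPVAT control 1, and it was −0.50 without aPVAT control 2 and −0.32 without aPVAT cKO 4. Without both aPVAT control 1 and aPVAT cKO 4 it was −0.14, a setting chosen after seeing the data, and a smaller difference follows from leaving out a highest control and a lowest cKO library. Without the 2 libraries richest in structural RNA, aPVAT control 2 and aPVAT cKO 4, it was −0.40. Other lists differed in this contrast to unlike degrees. The 7 MHC class II genes, which present peptides to T cells, all had non-overlapping groups with cKO lower (median −0.58, summed 1103 to 1415 CPM over the control libraries against 793 to 951 CPM over the cKO libraries), and H2-DMa and Cd74 were called (log2 fold change −0.63 and −0.63, adjusted p = 0.0429 and 0.0451). Of 15 other resident macrophage genes Cd209f and Cd209g were called lower (−0.55 and −0.56, adjusted p = 0.0250 and 0.0385; median of the 15 −0.40). Pan-leukocyte genes had a median of −0.42 with 0 of 7 called and 6 at an unadjusted p under 0.05, and by edgeR T and NK cell genes −0.72 with 0 of 8 called and 4 at an unadjusted p under 0.05. Mast cell genes had a median of −0.42 with 0 of 5 called, 4 at an unadjusted p under 0.05 and 3 apart with cKO lower. Inflammatory cytokine and chemokine genes had a median of −0.66, with 0 of 12 tested called and 10 estimates below 0. By edgeR 6 had an unadjusted p under 0.05. They summed to 18.1 to 25.1 CPM over the control libraries and 16.2 to 18.8 CPM over the cKO libraries. Monocyte genes had a median of −0.34 with 0 of 8 called and 4 at an unadjusted p under 0.05. Dendritic cell genes had a median of −0.06 with 0 of 8 called and 0 at an unadjusted p under 0.05, and neutrophil genes one of 0.10 with 3 of 6 estimates above 0. Of 8 fibroblast and progenitor genes (median −0.32, 7 below 0) Dpt, the matrix protein dermatopontin, was called lower (log2 fold change −0.70, SE 0.13, adjusted p = 0.0123). Adipocyte genes had a median of 0.01. No defining pan-leukocyte or MHC class II gene was at 0 in any library. The part of these other cells in the macrophage estimates was not tested.

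**Figure D5:**
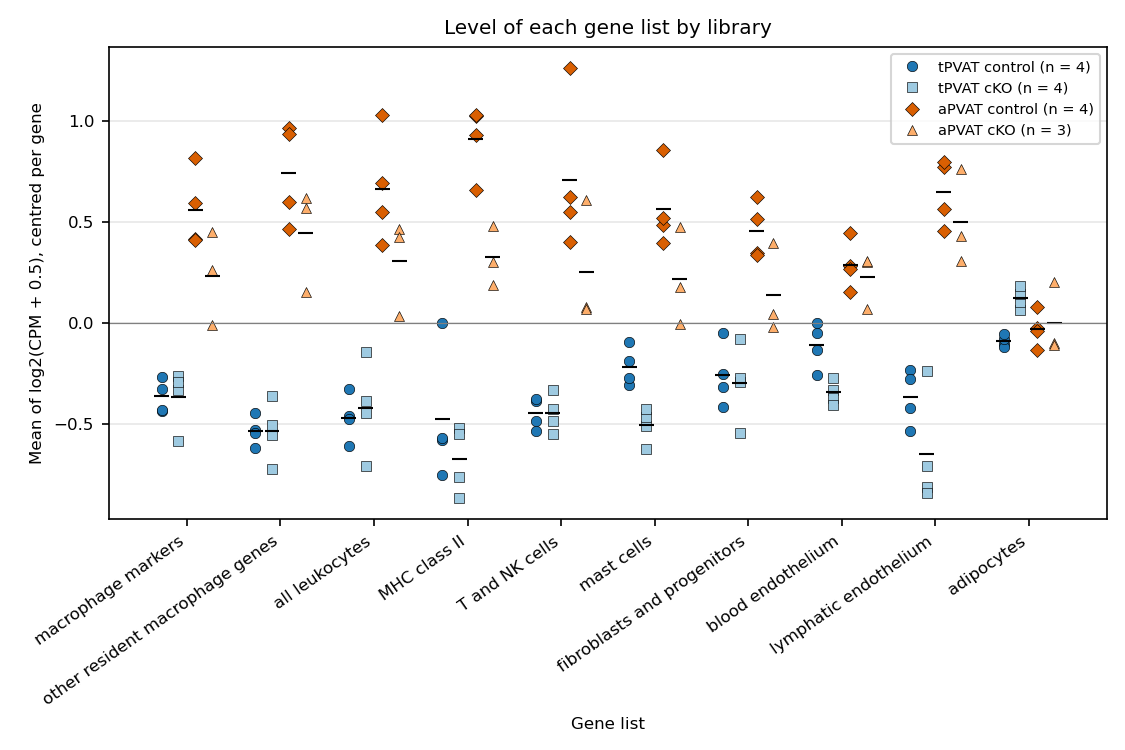
Level of the 32 macrophage markers and of 9 lists of other genes in each library, as the mean over the list's genes of log2(CPM + 0.5) centred per gene over the 15 libraries. Symbols are libraries and bars group means. For the macrophage markers the aPVAT controls lie between 0.41 and 0.82, aPVAT cKO between −0.01 and 0.45, tPVAT controls between −0.44 and −0.27 and tPVAT cKO between −0.59 and −0.27, and the adipocyte list between −0.14 and 0.20 over all 15 libraries.

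Whether the cKO difference itself depended on the depot was tested as an interaction. edgeR called 0 of 32 members, DESeq2 called 0, and 8 had an unadjusted p under 0.05, where 0.784% of genes tested were called and 8.85% had such a p. The median of aPVAT effect minus tPVAT effect was −0.36, with 30 estimates below 0. C1qa had the smallest adjusted p (log2 difference −0.50, 95% interval −0.87 to −0.13, adjusted p = 0.328), ahead of C1qb (−0.53, adjusted p = 0.380). A difference between depots in the response of the macrophage markers was not shown at this number of libraries.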

How the data were processed

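The authors deposited 1 table of raw counts, whole numbers per Ensembl gene for 43352 genes and 15 libraries, with no normalization applied. Per the labels' protocols, RNA came from snap-frozen, pulverised tissue and was made into stranded mRNA libraries. Per the submitters' processing notes the build was mm10, and Salmon, Subread and DESeq2 1.42.1 are named with no role. No source used here gives the counting tool, the annotation or its strand setting, so antisense overlaps could not be separated. Columns were matched to samples by depot, genotype and number, and symbols came from GENCODE M21 (98.0% of identifiers matched). The 32 members and 17 lists of other genes were chosen with earlier results of these data known. All 32 members could be named, along with Prdm16 and the genes with the smallest p in the other lists, at most 3 per list and contrast or the whole list of 5 or fewer.

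In R 4.3.3, edgeR 4.0.16 kept genes with filterByExpr (minimum count 10), leaving 19645, scaled libraries by TMM and fitted 1 quasi-likelihood model with 4 group means to all 15 libraries. P-values were adjusted by Benjamini-Hochberg over all genes tested, with a threshold of 0.05. The SE is the log2 fold change divided by the square root of F. The code was tried on simulated counts with the same spread for every gene and only a small set of genes changed. That setting is simpler than these data, in which 56.6% of genes tested were called between control depots. No result here rests on it. Totals of 37761133 to 68735385 counts gave at least 17 counts per member and library. No pair of libraries within a group agreed within sampling noise (chi-square per degree of freedom 10.5 to 142). Alternatives were DESeq2 1.42.0, its size factors in edgeR, total-count scaling, no filter, only the compared libraries, limma 3.58.1 with weights per library, a replicate block, and leaving out libraries.

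Sample numbers recur across groups. Deviations of same-numbered tPVAT control and cKO libraries correlated at 0.27, 0.27, 0.40 and 0.11, all above 0.1, the limit set for pairing. Unlike-numbered libraries of these groups correlated at −0.48 to 0.32, among them control 3 with cKO 4 at 0.32 and control 4 with cKO 1 at 0.29. The correlations alone therefore do not establish that the numbers pair these groups. No label says what a number marks. In the other comparisons at least 1 same-numbered pair was below 0.1.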

Additional observations from a re-analysis of the deposited data

Results flagged for a closer look

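In 10 of the 96 groups of 4 libraries that could be tested, 1 library stood apart from the other 3 by Dixon's test. Chance alone flags about 1 in 20 groups when they are independent. These groups are not, since all members were measured in the same libraries, so the count cannot be set against that rate. aPVAT cKO, with 3 libraries, was not tested. In 5 cases it was tPVAT control 2, the highest of its group: Lyz2 at 196.8 CPM against 155 to 162 CPM in the others, Fcgr2b at 20.1 against 17.0 to 17.4, Fcgr3 at 16.9 against 12.3 to 12.8, Fcer1g at 12.3 against 10.2 to 10.5, and Ccl8 at 2.89 against 1.05 to 1.17. Msr1 was high in tPVAT control 1, at 2.79 CPM against 2.06 to 2.11. tPVAT cKO 4 was low for Mrc1, at 46.1 CPM against 52.1 to 52.7, and for Cx3cr1, at 1.23 against 2.54 to 2.80. aPVAT control 1 was high for Lyve1, at 59.4 CPM against 40.1 to 41.9, and for Ccl2, at 4.72 against 1.59 to 1.995.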

How the results depend on the processing

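The depot counts stayed within 1.5 times under every alternative run, at 27 to 32 of 32 members in controls and 16 to 31 in cKO; leaving out 1 library at a time gave 27 to 30 and 16 to 26. In tPVAT the count of cKO differences was 0 except in the fit of the compared libraries alone, which gave 1. In aPVAT it was 8 with DESeq2, 1 with weights per library, and 0 to 4 with 1 library left out (3 without control 2 and 4 without cKO 3). The interaction gave 0 throughout. With the sample number as a replicate block the counts were 29 (controls) and 22 (cKO) for the depots and 0 for both cKO comparisons and the interaction; with genotype and number as the block they were 29, 25 and 0. The block changed the call of Timd4, Cd68, Ccl6 and Itgam in cKO. Direction was followed only for members called under at least 1 setting of the comparison concerned. Signs of the remaining estimates were not followed, and in tPVAT the median cKO difference itself ranged from −0.06 to 0.08 with 1 library left out. Among the members followed, direction reversed for 3 that had not passed in the main fit. Between control depots it was Cx3cr1 (−0.0038 with the compared libraries alone, −0.11 without the 2 libraries richest in structural RNA, and −0.12 to 0.34 with 1 library left out). Between cKO depots they were Cd163 (−0.10 to 0.25) and Lyve1 (−0.051 to 0.33) with 1 library left out, negative without aPVAT cKO 3. The cause was not tested. In aPVAT the 95% interval of the cKO difference lay within 2-fold for 27 members and within 1.5-fold for 6.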
